A study of Homo sapiens with 27 samples.

Results

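The stretch described here lies on the long arm of chromosome 8 at band 8q24, around the MYC gene, and is the set of peaks on chromosome 8 that start between positions 125500000 and 130500000 of GRCh38. The window spans 5.0 Mb. It holds 2790 of the 764377 peaks in the 13 deposited peak lists, against 36423 peaks elsewhere on chromosome 8. Of these 2790 peaks, 685 came from the 5 H2A.Z ChIP lists, 338 from the 5 acH2A.Z ChIP lists and 1767 from the 3 RIP lists. Each peak was taken by its position alone, so its height, its fold over control, the DNA of the input libraries and the RNA were not used in the choice.

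MYC encodes a transcription factor that drives growth, and the cell line used, HL-60, grown from a promyelocytic leukaemia, is known to carry extra copies of DNA from this band. Such copies often join several pieces of a chromosome and leave out what lay between them. H2A.Z is a variant of histone H2A that is placed in nucleosomes near active promoters and enhancers, and it can be acetylated (acH2A.Z) by the acetyltransferase Tip60. In ChIP, DNA bound to a protein is recovered with an antibody, and in RIP it is the bound RNA that is recovered. Where a cell holds more copies of a stretch of DNA, any DNA library holds more reads from it, and this includes the input DNA sequenced without an antibody.

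All libraries came from HL-60 cells. ChIP of H2A.Z and of acH2A.Z was available for cells given the vehicle DMSO, cells given 100 µM DRB (an inhibitor of transcription elongation), cells given 0.8 µM actinomycin D (ActD, an intercalator that blocks transcription) and cells whose treatment is labelled siMyc or siNTC. How long the drugs were given is not given in the sources used here. The 3 RIP libraries, for H2A.Z, for its acetylated form and for Tip60, came from cells with no treatment, input DNA came from the DMSO, DRB and ActD cells, and RNA came from untreated cells and the same 3 treatments. Each group was 1 library, so there are no replicates, no p-value is given, and every interval in brackets is a 95% interval that covers counting error only.

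The lists differed in length from 1271 peaks for H2A.Z in DMSO to 264469 for acH2A.Z RIP, and peaks were called in each library by itself, so peak numbers of different lists are not on 1 scale, and densities and shares were formed within a list. No deposited peak had a fold below 4.0 over its control, and the largest p-value was 0.0001. The 3 input DNA libraries were shallow, with 440923 to 469547 expected counts over all genes. In the RNA libraries 9 of 10 promyelocyte and myeloid markers reached at least 1 CPM in total RNA, with ELANE at 0, and all 12 erythroid, lymphoid, epithelial and fibroblast markers stood at 0 there.

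H2A.Z peaks were denser in the window than on the rest of chromosome 8 in all 5 lists, with higher ratios in the drug and vehicle lists than in the siNTC and siMyc lists. In DMSO cells 92 of the 130 H2A.Z peaks of chromosome 8 lay in the window, which is 1.84 peaks per 100 kb against 0.0271 on the rest of the chromosome, a ratio of 67.8 [46.0, 102]. In DRB cells 365 of 506 lay there, with 7.30 against 0.101 peaks per 100 kb and a ratio of 72.5 [59.6, 88.7]. In ActD cells 120 of 266 lay there, a ratio of 23 [17.9, 29.5]. The window thus held 70.8%, 72.1% and 45.1% of the chromosome's H2A.Z peaks under the 3 conditions. In siNTC cells 54 of 522 peaks gave a ratio of 3.23 [2.39, 4.29], and in siMyc cells 54 of 881 gave 1.83 [1.36, 2.41]. Against all other autosomes the order of ActD and siNTC turned, with 3.75 in ActD, 4.63 in siNTC and 2.89 in siMyc. With only peaks of a fold of at least 8 the ratio on chromosome 8 was 4.62 in ActD, 1.14 in siNTC and 0.702 in siMyc.

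The acetylated form had a lower ratio than H2A.Z in 4 of the 5 conditions, siMyc being the exception. It was 1.49 [0.998, 2.16] in DMSO, from 30 window peaks, and 1.41 [0.964, 2] in siNTC, from 33 window peaks, and both intervals include 1. It stood at 3.86 [3.21, 4.61] in DRB with 139 peaks, at 2.12 [1.67, 2.66] in ActD with 81 and at 2.42 [1.80, 3.19] in siMyc with 55, the latter pair turning to 0.807 and 0.864 at a fold of at least 8. RIP peaks were more frequent in the window for all 3 proteins. H2A.Z RIP had 308 peaks there and a ratio of 1.66 [1.47, 1.86], acH2A.Z RIP 778 and 1.63 [1.52, 1.76], and Tip60 RIP 681 and 1.55 [1.43, 1.67]. At a fold of at least 8 the 3 ratios were 0.947, 1.41 and 1.43, and by summed tags 3.07, 3.90 and 5.10. In all, 7 of 13 lists had a window density at least 2 times that of the rest of the chromosome, namely 4 of 5 H2A.Z lists, 3 of 5 acH2A.Z lists and 0 of 3 RIP lists.

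The density was not even across the window. The chromosome was divided into 1451 bins of 100 kb, 50 of them in the window, and a bin was counted when it held at least 2 times the mean bin of the chromosome outside the window. For H2A.Z in DRB cells 22 of the 50 window bins passed, against 7.03% of all bins, and 28 window bins held no peak at all. The fullest bins held 27 peaks each. In DMSO cells 21 window bins passed, against 3.10% of all bins, and in ActD cells 23 passed, against 9.58%. In these sparse lists 1 peak is enough to pass. With at least 3 peaks also required, 21 window bins passed in DRB against 1.65% of all bins, 15 in DMSO against 1.24% and 14 in ActD against 1.24%. The bins that passed were thus a part of the stretch labelled an amplicon, not all of it.

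The other lists had fewer or less distinct bins. H2A.Z in siNTC cells passed in 28 window bins against 27.6% of all bins, and in siMyc cells in 15 against 15.0%. For acH2A.Z the counts were 12 window bins in DMSO against 25.1% of all bins, 21 in DRB against 18.5%, 17 in ActD against 19.2%, 16 in siNTC against 27.8% and 24 in siMyc against 29.1%. In DMSO the window's 24% was close to the background of all bins. With at least 3 peaks required, the H2A.Z lists kept 8 window bins in siNTC against 1.31% of all bins and 7 in siMyc against 3.93%. The acH2A.Z lists kept 4 in DMSO against 3.79%, 19 in DRB against 9.86%, 10 in ActD against 11.2%, and 4 and 6 in siNTC and siMyc against 4.48% in each. For RIP, 19 window bins passed for H2A.Z against 7.58%, 16 for acH2A.Z against 4.07% and 7 for Tip60 against 4.82%, and every window bin held at least 1 RIP peak of each kind.

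**Figure D1:**
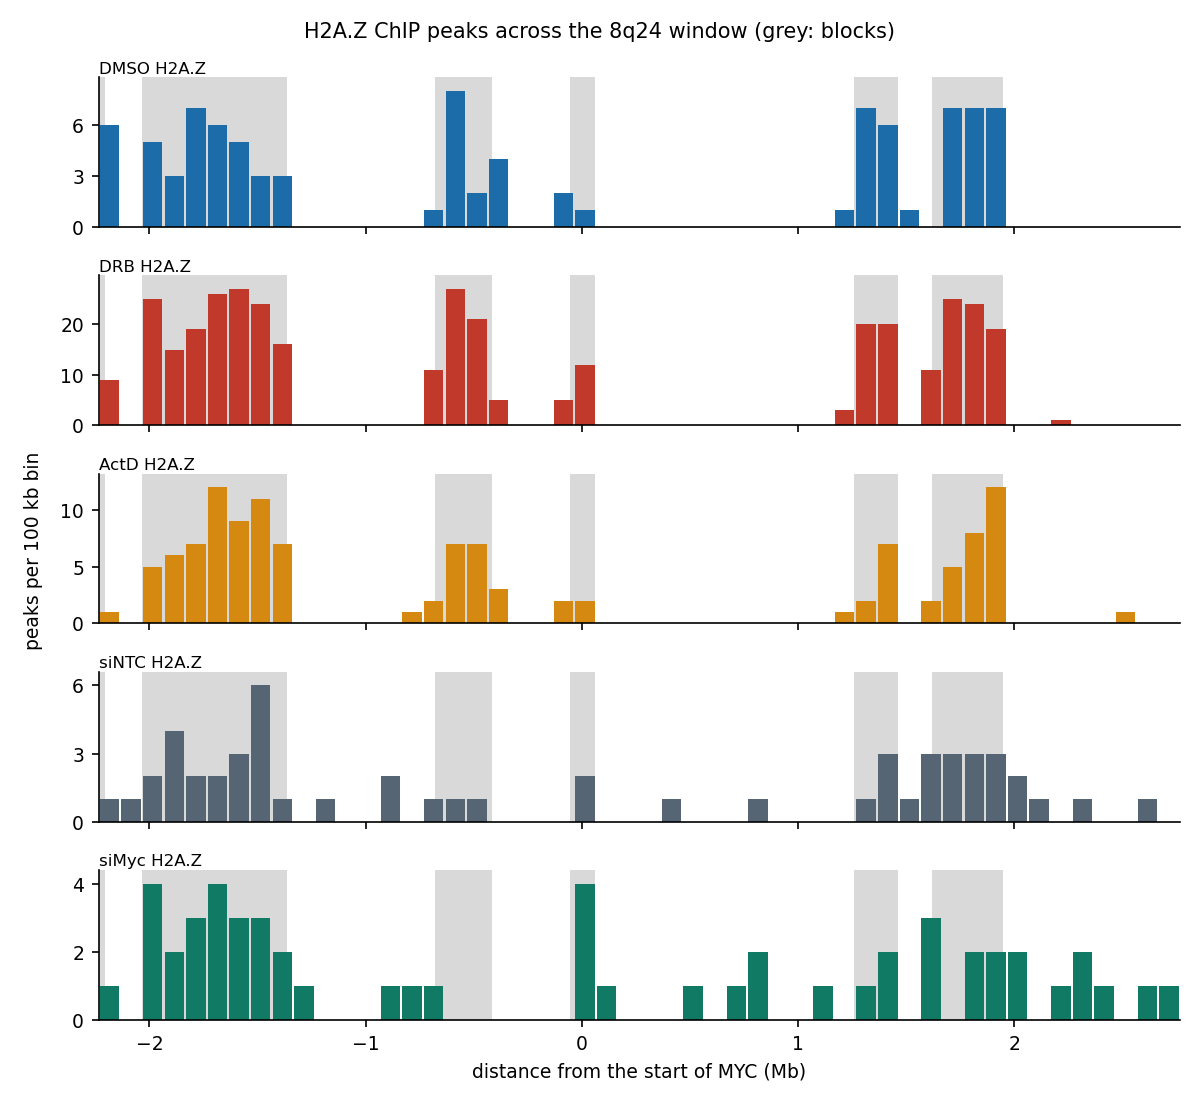
Number of H2A.Z ChIP peaks per 100 kb bin (vertical axis, own scale per panel) against the distance from the start of MYC in Mb, for 1 library per panel, with the blocks of the DRB list in grey. Of the DMSO, DRB and ActD peaks shown, 94.6%, 99.7% and 97.5% stand in the grey blocks, where the DRB list reaches 27 peaks in a bin, and the siNTC and siMyc lists reach at most 6 and 4.

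The H2A.Z peaks of DRB cells fell into 6 separate runs, called blocks here. A block is a run of at least 10 peaks with no more than 100 kb between neighbours, a rule that was set after the data were seen. All 6 runs of that kind that this list has on chromosome 8 lie here. The first block, chr8:125219820-125530142, begins before the window, holds 63 peaks and covers the gene TRIB1, whose product is a pseudokinase that steers protein breakdown, and part of NSMCE2, a SUMO ligase gene. The second, chr8:125701400-126371329, is the widest at 669.9 kb and holds 152 peaks around the long non-coding RNA gene LINC00861. The third block, chr8:127057333-127321304, holds 64 peaks and covers the non-coding RNA genes PRNCR1, PCAT2, CASC19 and CCAT1.

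The fourth block, chr8:127678838-127795534, is the narrowest at 116.7 kb, holds 17 peaks and covers CASC11, MYC and 1 end of PVT1, a long non-coding RNA gene. The fifth block, chr8:128994921-129195054, holds 43 peaks and no located gene of the gene tables. The sixth, chr8:129356399-129682796, holds 79 peaks and lies almost wholly within CCDC26, another long non-coding RNA gene. Within the blocks neighbouring peaks started a median of 2.96 to 3.82 kb apart. Together the blocks take up 1887 kb of a span of 4463 kb, or 42.3% of it, and the 5 gaps between them are 161 to 1199 kb wide and held none of the 506 DRB peaks of the chromosome. The widest gap follows MYC and holds nearly all of PVT1.

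Most block edges came back in the DMSO and ActD lists. In both the DMSO and the ActD list 5 runs of at least 10 peaks were found on chromosome 8, and all 5 in each overlap a block. The block over MYC was missed by this rule, with 3 H2A.Z peaks in it in DMSO and 4 in ActD. Of 24 outer edges compared, those of the block over MYC included, 16 lay within 10 kb of the DRB edge. The median distance was 6.40 kb and the largest 72.6 kb. Only peaks starting up to 50 kb outside a block were searched, so peaks further into a gap could not add to a distance. The sixth block ended at 129682275 in DMSO, 129682796 in DRB and 129684499 in ActD, and the first began at 125228129, 125219820 and 125215486. These 3 lists share the cell line and, where the control library was common to them, its reads. The siNTC list had 2 runs of this kind on chromosome 8 and both overlap a block, and the siMyc list had 5, of which 1 does.

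A single stretch was also fitted to each list with at least 300 peaks on chromosome 8. Of all runs of 100 kb bins denser than the other bins, it is the run with the highest Poisson likelihood. Such a run can be long and only a little denser. For H2A.Z in DRB cells it ran from 125200001 to 129700000 and held 418 peaks, 148 [118, 189] times the density of the other bins, so it began before the window and ended before the window's end. Bins of 50 kb gave the same edges. For acH2A.Z the stretch ran from 122600001 to 130100000 in DRB cells, with a ratio of 3.94 [3.37, 4.59], and from 122600001 to 130400000 in siMyc cells, with 2.67 [2.11, 3.33]. In ActD cells it covered only 129300001 to 130400000, with bins of 200 kb it began at 119800001, and at a fold of at least 8 it ran from 17100001 to 125800000, so the edges of this list moved with the setting. The DMSO and siNTC acH2A.Z stretches lay elsewhere, towards the end of the chromosome, and those of H2A.Z in siNTC and siMyc cells took in most of the long arm.

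RIP peak numbers gave no edge at the window. The best stretch began at 117200001 for H2A.Z RIP, 122500001 for acH2A.Z RIP and 119200001 for Tip60 RIP, and ended at 145100000, 145100000 and 145000000. Inside these stretches the density was 1.58 [1.49, 1.68], 1.72 [1.66, 1.79] and 1.72 [1.65, 1.78] times that of the other bins. All 3 therefore take in the distal part of the long arm up to its last genes, of which the window is a small share.

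The blocks set apart the peaks of lists that had no part in defining them. In DMSO cells the H2A.Z density was 369 [229, 621] times that of the chromosome beyond the blocks and gaps, and in ActD cells 82.2 [64.1, 105] times. In siNTC it was 6.46 [4.57, 8.90] times and in siMyc 3.12 [2.16, 4.38] times. For acH2A.Z the ratio was 2.89 [1.80, 4.42] in DMSO, 9.55 [7.89, 11.5] in DRB, 3.78 [2.83, 4.96] in ActD, 1.79 [1.02, 2.93] in siNTC and 4.38 [3.07, 6.08] in siMyc. The lower bound exceeded 1 in all 13 lists, the DRB H2A.Z list that defined the blocks being 1 of them. This did not hold among peaks of a fold of at least 8, where the ratio was 0.334 in siNTC and 0 in siMyc for H2A.Z, 0.736 in ActD, 0.416 in siNTC and 0.321 in siMyc for acH2A.Z, and 0.357 and 0.983 for H2A.Z and Tip60 RIP.

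The gaps had lower ratios than the blocks in every list but Tip60 RIP. In 9 of the 10 ChIP lists the interval of the gap density over that of the rest of the chromosome began below 1. The exception was H2A.Z in DMSO, where 5 gap peaks gave 13 [3.83, 35.4] against 21 peaks on all the rest of the chromosome. For acH2A.Z the gaps were sparser than the rest of the chromosome in DMSO, with 4 peaks and 0.385 [0.105, 0.992], and in ActD, with 11 peaks and 0.554 [0.276, 0.995]. Of the window's peaks, 644 of 685 in the H2A.Z lists and 237 of 338 in the acH2A.Z lists lay in blocks, and 16 and 57 lay past the last block. Of the 644, 364 came from the DRB list that defined the blocks.

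**Figure D2:**
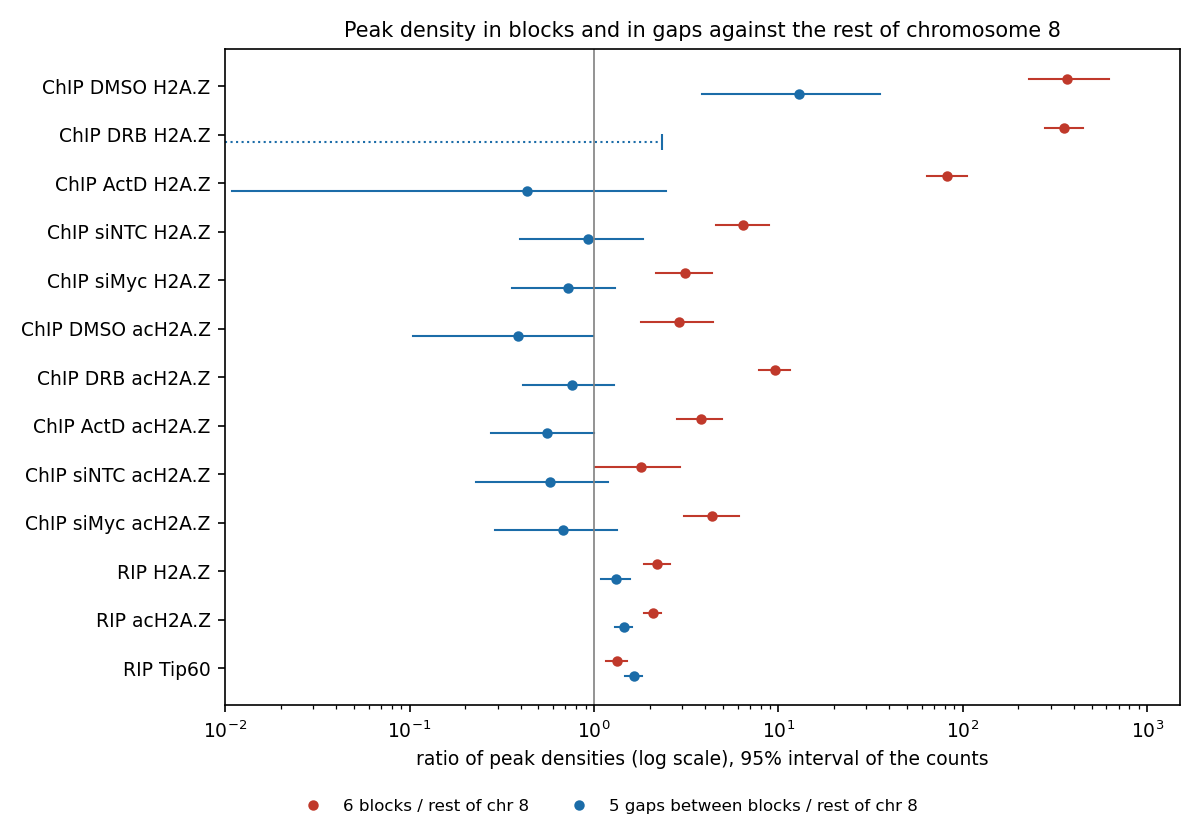
Peak density in the 6 blocks (red) and in the 5 gaps (blue) divided by that of the rest of chromosome 8, on a log axis, with a point and a line for the ratio and its 95% interval of the counts in each list. A dotted line stands for a ratio of 0, and the DRB H2A.Z list defined the blocks. The red points lie above 1 in every list and the blue intervals of 9 ChIP lists begin below 1.

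RIP behaved differently by count and by coverage. By number of peaks the blocks were 2.21 [1.87, 2.59] times as dense as the rest of the chromosome for H2A.Z RIP, 2.09 [1.88, 2.31] for acH2A.Z RIP and 1.33 [1.16, 1.52] for Tip60 RIP, and the gaps 1.32 [1.09, 1.57], 1.45 [1.30, 1.61] and 1.64 [1.48, 1.82]. For Tip60 the blocks thus held fewer peaks per length than the gaps, 0.808 [0.681, 0.957] times as many. The peaks in blocks were wider, however. Tip60 peaks had a median width of 1571 bases in blocks against 500 in gaps and on the rest of the chromosome, and acH2A.Z RIP peaks 1086 against 500.

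RIP peaks therefore covered much more of the blocks. Tip60 peaks lay over 31.3% of the bases of the blocks (590 kb), 11.2% of the gaps and 6.38% of the rest of the chromosome. For acH2A.Z RIP the shares were 32.5% (614 kb), 10.4% and 6.85%, and for H2A.Z RIP 5.59% (106 kb), 3.07% and 2.22%. Within the covered bases the deposited normalized tag count per kb was 29.4, 36.4 and 26.0 in blocks for Tip60, acH2A.Z and H2A.Z RIP, against 11.5, 16.2 and 11.3 on the rest of the chromosome, ratios of 2.55, 2.25 and 2.30. In the gaps those ratios were 1.08, 1.01 and 1.13. The gap peaks were thus close in height to those elsewhere, and the block peaks taller and, in 2 of the 3 lists, wider.

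**Figure D3:**
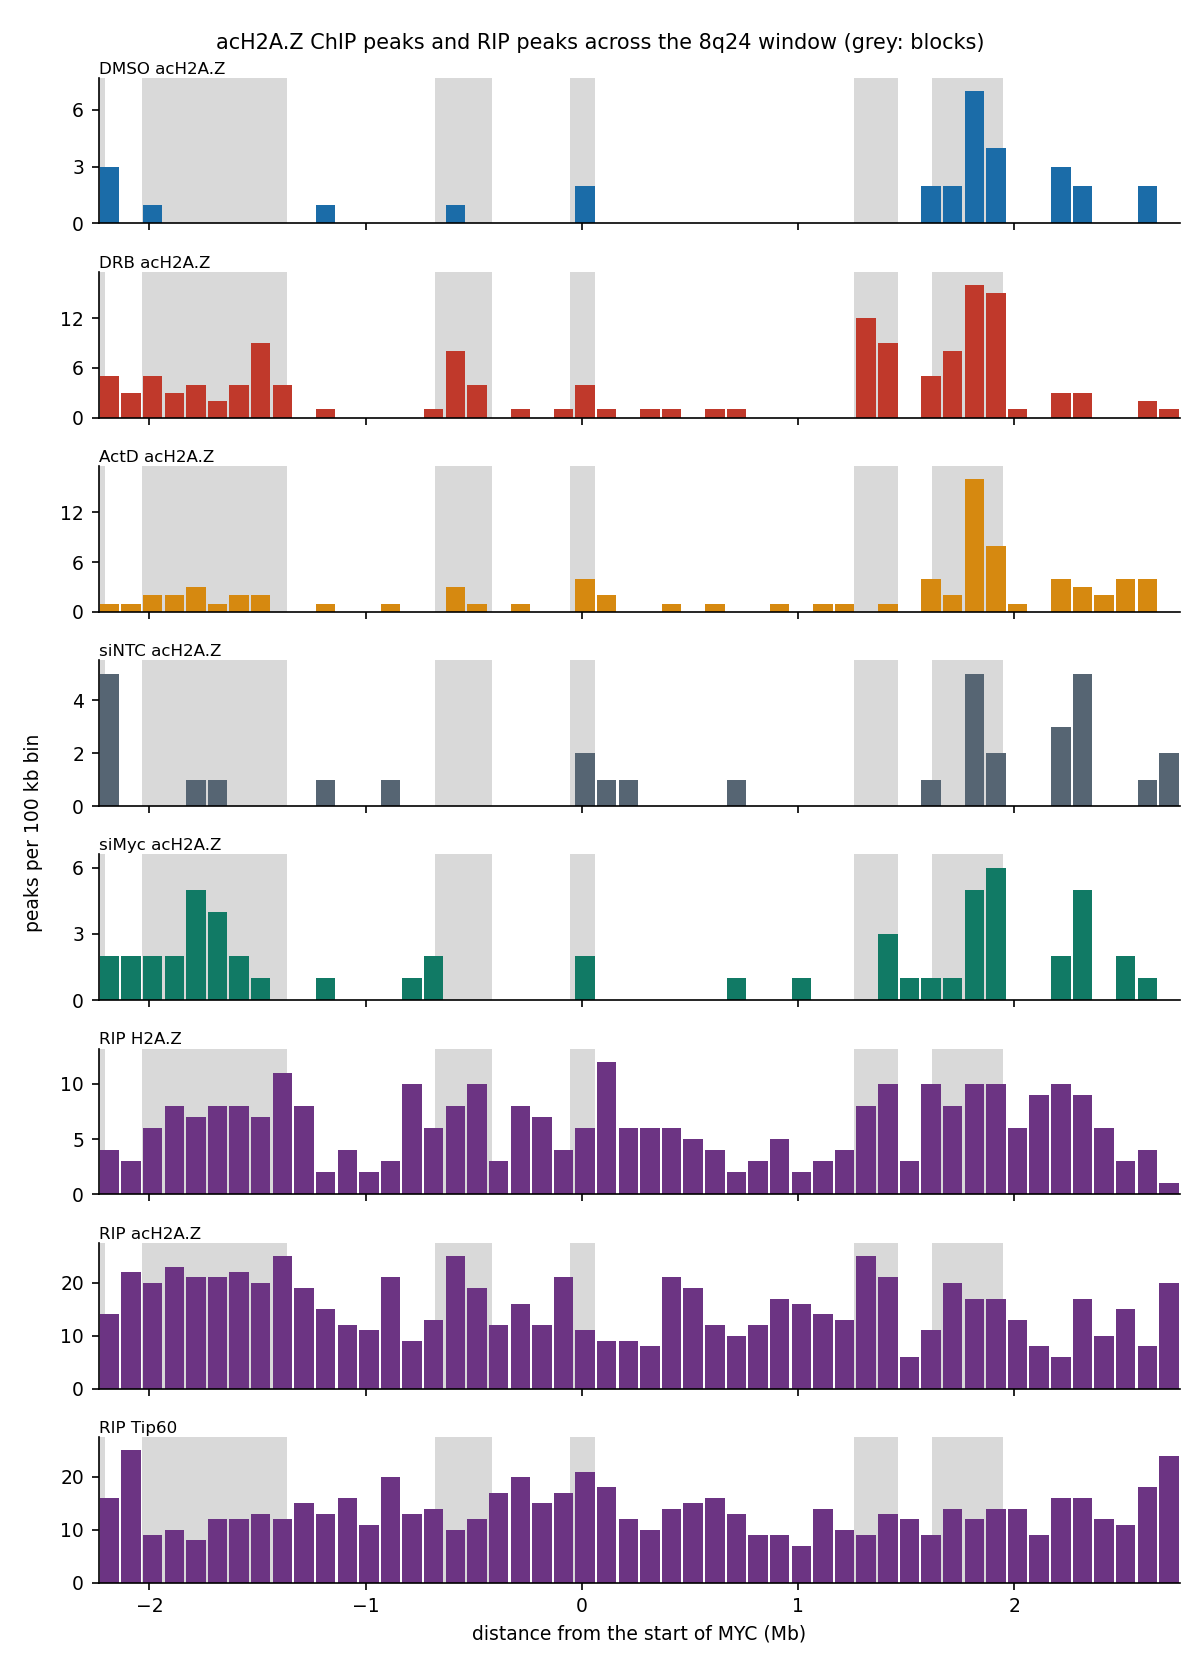
Number of peaks per 100 kb bin (vertical axis, own scale per panel) against the distance from the start of MYC in Mb, for the 5 acH2A.Z ChIP lists and the 3 RIP lists, with the blocks in grey. In DRB and in ActD acH2A.Z ChIP peaks stand highest in the last block, with 16 in a bin, and RIP peaks fill every bin, up to 25 for acH2A.Z and Tip60.

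The blocks were not alike for acH2A.Z. In DMSO cells 15 of the 22 block peaks lay in the sixth block, over CCDC26, and none in the second or the fifth. In DRB cells the sixth block held 44 peaks (13.5 per 100 kb), the fifth block 21 (10.5 per 100 kb) and the other 4 between 3.43 and 5.16 per 100 kb. In ActD cells 29 of 55 block peaks lay in the sixth. H2A.Z in the same cells was more even, with 2.57 to 6.77 peaks per 100 kb over the blocks in DMSO, 14.6 to 24.2 in DRB and 3.43 to 8.51 in ActD, lowest each time in the block of MYC. Of the 39 window peaks made up of the 3 highest-scoring ones in each list, 35 lay in blocks and 18 overlapped CCDC26. Of all window peaks, 94.0% lay in blocks in the H2A.Z ChIP lists, 70.1% in the acH2A.Z ChIP lists and 36.3% in the RIP lists. The share over all 2790, 54.6%, is weighted to the long RIP lists and so is no like background for the 39. The share of all window peaks that overlap CCDC26 is not given here.

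Examples give the size of these peaks. In DRB cells the highest-scoring acH2A.Z peak, chr8:129545972-129557258, was 11286 bases wide inside CCDC26, with a normalized tag count of 5154 and a fold over control of 9.67. A second one in the same gene, chr8:129662795-129670194, had a tag count of 6169 and a fold of 23.4. The same spot carried peaks among the highest-scoring 3 in DMSO (chr8:129664648-129666512, tag count 493.5), siNTC (chr8:129665402-129666311, 117.4) and siMyc (chr8:129664456-129666542, 366). The H2A.Z peak over the start of MYC in siNTC cells, chr8:127734721-127736316, had a tag count of 1620 and a fold of 6.99. Past the blocks, a peak within ASAP1, a gene for a regulator of ARF GTPases, was the highest-scoring H2A.Z peak of the window in both siNTC (chr8:130357986-130358990, tag count 236.0) and siMyc (chr8:130358017-130359020, 249.6).

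In most ChIP lists window peaks lay less often at gene ends than peaks elsewhere on the chromosome. H2A.Z peaks within 1 kb of either end of a RefSeq gene made up 6 of 92 in DMSO, or 6.52% [2.43, 13.7], against 22 of 38 on the rest of the chromosome, or 57.9% [40.8, 73.7]. In DRB cells the shares were 6.03% [3.82, 8.98] and 44.0% [35.6, 52.6], and in ActD cells 3.33% [0.916, 8.31] and 15.8% [10.3, 22.7]. For acH2A.Z the shares were 26.7% [12.3, 45.9] and 58.3% [54.1, 62.4] in DMSO, and 11.5% [6.72, 18] and 40.3% [37.3, 43.4] in DRB. For Tip60 RIP they were 6.61% [4.86, 8.74] and 7.40% [6.94, 7.88], with overlapping intervals, as in the other 2 RIP lists. The intervals of H2A.Z in siMyc also overlapped, with 13% [5.37, 24.9] and 21.0% [18.3, 24].

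H2A.Z and acH2A.Z peaks of the same cells coincided less in the window than elsewhere in DMSO and DRB when counted from the H2A.Z side. An acH2A.Z peak was met by 4 of 92 window H2A.Z peaks in DMSO, or 4.35% [1.2, 10.8], against 57.9% [40.8, 73.7] of those on the rest of the chromosome. In DRB the shares were 25.5% [21.1, 30.3] and 63.8% [55.3, 71.7], while in ActD they were 20.8% [14, 29.2] and 13% [8.02, 19.6], with overlapping intervals. From the acH2A.Z side the window share was the higher in DMSO, DRB and ActD. It was nearly equal in siNTC, at 18.2% against 18.5%, and in siMyc, at 27.3% against 27.0%. H2A.Z peaks were denser in the window, and the part of that in these shares was not tested. In DMSO the share was 13.3% [3.76, 30.7] against 3.91% [2.46, 5.86], with overlapping intervals. In DRB cells 59.0% [50.3, 67.3] of window acH2A.Z peaks met an H2A.Z peak, against 8.81% [7.14, 10.7] elsewhere, and in ActD 30.9% [21.1, 42.1] against 1.68% [1.00, 2.65]. Of the window peaks of acH2A.Z in DMSO, 28 of 30 were met by one in DRB, or 93.3% [77.9, 99.2], close to the 94.3% [92.1, 96.1] elsewhere. For H2A.Z 29 of 92 were, or 31.5% [22.2, 42.0], against 39.5% [24, 56.6] elsewhere, with overlapping intervals.

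The library used as control held more tags in the blocks in most lists. Under ActD H2A.Z peaks the deposited control tag count was a median of 11.3 per kb of peak in blocks and 1.00 on the rest of the chromosome. Under H2A.Z peaks of siNTC and siMyc it was 10.2 in blocks in both, against 3.39 and 3.4, and in the gaps 1.30 and 2.29. For RIP it was 15.5 against 5.20 for H2A.Z, 9.02 against 1.00 for acH2A.Z and 11.2 against 1.00 for Tip60, with 5.62, 1.00 and 1.00 in the gaps. The DMSO and DRB H2A.Z lists were the exception, at 1.00 and 1.01 in blocks against 1.00 elsewhere, where 53.8% and 48.1% of block peaks had a control tag count at the lowest value listed or below it, 0.5.

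The fold over control moved the other way. H2A.Z block peaks had a median fold of 5.09 in ActD, 4.41 in siNTC and 4.51 in siMyc, near the smallest fold of 4.0 that was listed, against 22.0, 7.52 and 7.12 on the rest of the chromosome. In DMSO and DRB it was 12.3 and 12.8 in blocks against 13.6 and 14.5. Tip60 RIP peaks had a median fold of 14.9 in blocks against 68.3 elsewhere. These medians rest in part on the smallest control value, since 69.8% of the Tip60 RIP peaks and 54.0% of the ActD H2A.Z peaks on the rest of the chromosome had a control tag count of 0.5 or less, against 8.14% and 2.88% in blocks. With only peaks of a fold of at least 8 kept, the block ratio remained above 1 at 12.4 for H2A.Z in ActD and at 7.31 for acH2A.Z in DRB. The part that the number of DNA copies has in the peak counts was not tested.

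**Figure D4:**
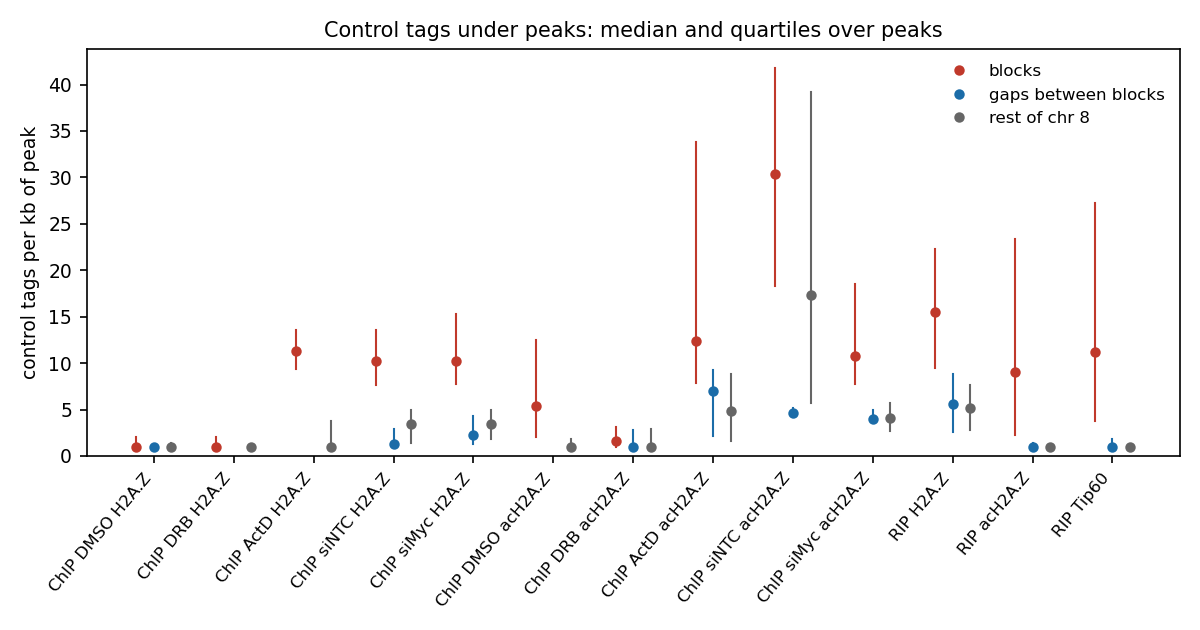
Control tags per kb of peak in blocks (red), gaps (blue) and the rest of chromosome 8 (grey) for each list, as the median over peaks with a line from the lower to the upper quartile, drawn where at least 5 peaks were present. The red medians lie above the grey ones in every list but DMSO and DRB H2A.Z, where they are about equal.

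Input DNA counts of genes were not taken from a peak list, though the blocks used below to split the genes came from the DRB H2A.Z list. Whether an input library also served as control for the peaks is not given. Summed over the 3 libraries, 44 genes that start in the window had 3.36 [3.25, 3.48] times the counts per length of the other 1445 located genes of chromosome 8, with 3.70, 3.27 and 3.15 in DMSO, DRB and ActD. Among genes with at least 20 summed counts, the median of 18 window genes stood at 1.39 times the median of 530 genes outside. Split by block, the 14 genes lying inside a block had 6.75 [6.52, 6.99] times the level of the 1442 genes beyond the blocks and gaps, with 7.06, 6.93 and 6.29 in the 3 libraries. The 19 genes in the gaps had 0.799 [0.701, 0.906] times that level. Genes of the rest of chromosome 8 stood at 0.881 [0.872, 0.891] times those of the other autosomes.

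Single genes wholly inside a block could be read in the first 4 blocks only. The fifth holds no located gene, and the sixth none with enough counts wholly inside it. CCDC26 covers nearly all of the sixth block but starts just before it, so it was counted as across an edge. It had 35 summed counts and stood at 1.2 times the median gene. Of 548 genes of chromosome 8 with at least 20 summed input counts, 18.2% reached at least 2 times the median gene per length. Of such genes wholly inside a block all 8 did, in the gaps 0 of 5 and across a block edge 1 of 3. The 8 do not cover the fifth and sixth blocks, and CCDC26 did not reach 2 times. The limit of 20 acts on the same counts, so a short gene can pass it by being high, and the 8 are partly set by it. CASC11, a non-coding RNA gene beside MYC, had 138, 149 and 123 counts in DMSO, DRB and ActD and ranked first on the chromosome, at 9.41 times the median gene. TRIB1 had 165, 148 and 128 counts and 7.77 times, with MYC between them in rank, the 3 highest of the chromosome.

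The non-coding genes of the next 2 blocks followed. PRNCR1 had 516.7, 456.7 and 459.5 counts and 5.50 times the median, although it overlaps PCAT2, with which its reads may be shared. LINC00861 had 179 counts in each library and 5.45 times, and CCAT1 53, 48 and 73 counts and 4.37 times. Of the pseudogenes in the second block, SOD1P3 stood at 4.92 times with 8, 7 and 9 counts, and KNOP1P5 at 3.36 with 27, 22 and 32, and reads of such copies can be shared with their parent genes. NSMCE2, which runs across the left edge of the first block, had 12, 5 and 14 counts and 3.23 times. The other genes across an edge with enough counts were PVT1 with 9, 9.14 and 9 counts and 1.54 times, and CCDC26, over the sixth block, with 17, 6 and 12 counts and 1.2 times. The other block genes had too few counts for a rank. Among them RFPL4AP5 stood at 2.37 times the median with 14 summed counts, PCAT2 at 1.08 with 8 and CASC19 at 0.322 with 1. These levels, 2 of them far below those of the ranked block genes, rest on few counts.

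Genes in the gaps stood near or below the median. LRATD2, a protein-coding gene in the second gap, had 25, 23 and 25 counts and 0.878 times the median. PCAT1 had 10, 5 and 7 counts and 0.629 times, and POU5F1B, a retrotransposed copy of the pluripotency factor gene POU5F1, had 13, 28.1 and 18.6 counts and 0.557 times. LINC02912 with 25 summed counts and LINC00824 with 26 stood at 0.664 and 1.15. Each of the 5 stood below the lowest of the 8 ranked block genes, 3.36 times. The count limit partly sets that lowest value, so nothing is read from the distance. Of the named block genes under the limit, PCAT2 at 1.08 and CASC19 at 0.322 stood below LINC00824. RFPL4AP5 at 2.37 stood above all 5, and these 3 levels rest on few counts.

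Of the window's genes past the last block with at least 20 summed counts, 3 stood below the median and CYRIB above it. GSDMC, a gasdermin gene and the first one past the last block, had 9, 7 and 10 counts and 0.597 times the median. CYRIB, a gene for a regulator of RAC1, had 27, 43 and 29 counts and 2.19 times. ASAP1 at 0.393 and the non-coding ASAP1-IT2 inside it at 0.768 were below it, and so was ADCY8 beyond the window, at 0.215 the lowest of the 548 genes. PHF20L1, also beyond the window, had 86, 76 and 95 counts and stood at 3.5, above the block gene KNOP1P5. On the left, SQLE, a cholesterol synthesis gene, stood at 1.57 and ZNF572 at 0.597. The highest gene outside the window and outside the blocks was ASPH at 5.52 times, and 17.4% of the 530 genes outside the window reached 2 times.

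**Figure D5:**
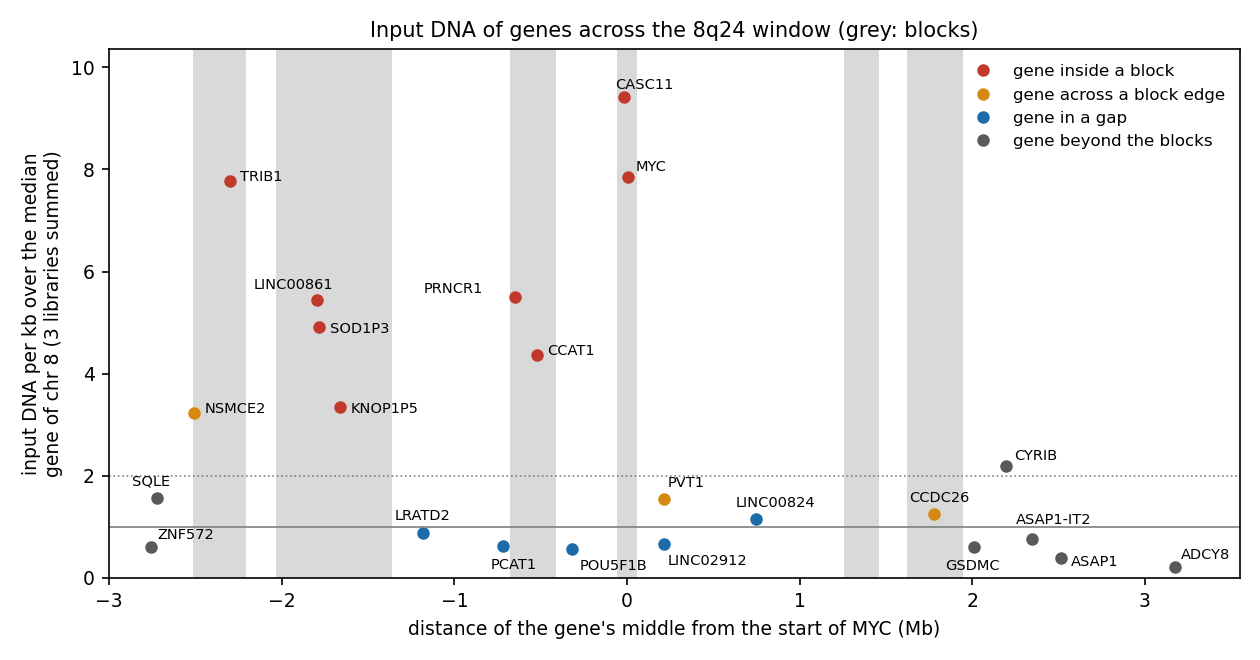
Input DNA counts per kb of gene, summed over the DMSO, DRB and ActD libraries and divided by the median gene of chromosome 8, for each gene with at least 20 counts, against the distance of the gene's middle from the start of MYC in Mb. Genes lying wholly inside a grey block stand between 3.36 and 9.41, and genes lying wholly in a gap between 0.557 and 1.15. Of the genes across a block edge, NSMCE2 at 3.23 and CCDC26 at 1.2 have their middle in the grey. PVT1 at 1.54 has its middle in a gap. The solid and dotted lines mark 1 and 2 times the median.

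The share of the chromosome's peaks that lay in the window differed between conditions. For H2A.Z the odds of lying in the window were 1.07 [0.678, 1.66] times those of DMSO in DRB cells and 0.339 [0.211, 0.543] times in ActD cells, or 0.0741 times among peaks of a fold of at least 8. The window held 365 H2A.Z peaks in DRB, 120 in ActD and 92 in DMSO, and the rest of the chromosome 141, 146 and 38. For acH2A.Z the odds were 2.58 [1.70, 4.02] times those of DMSO in DRB and 1.42 [0.912, 2.27] in ActD, where the interval includes 1 and the ratio turns to 0.812 at a fold of at least 8. Both drug lists are set against the same DMSO list.

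The siMyc cells differed from siNTC in opposite ways for the 2 antibodies. The odds of an H2A.Z peak lying in the window were 0.566 [0.374, 0.857] times those of siNTC, with 54 window peaks in each list but 827 against 468 elsewhere on the chromosome. For acH2A.Z they were 1.71 [1.08, 2.76] times, with 55 against 33 window peaks and 637 against 655 elsewhere. Of the siMyc acH2A.Z peaks 16 lay in the second block and 13 in the sixth, and of the siNTC peaks 2 and 8. The siNTC and siMyc lists differ in length, and the part of that was not tested.

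RNA levels were read for the same genes, in bulk libraries where fewer cells with a transcript and less of it per cell cannot be told apart. MYC had 153 CPM in nascent RNA of DMSO cells, 1.12 in DRB and 34.8 in ActD, and PVT1 11.1, 5.30 and 0.0794, with 1 count in ActD. Ratios are log2 ratios of CPM after adding 1 CPM, counted as higher or lower at a size of at least 1, and the median of all genes stood at -1.32 in DRB and -1.17 in ActD against DMSO. In DRB 5 of 14 measured window genes were higher, against 9.62% of 12252 genes, and 3 were lower, against 57.4%. All 5 passed the limit on low values only through the DRB library, so nothing is read from their number. Centred on the median gene the numbers were 8 and 1. In ActD 0 of 9 were higher, against 15.9% of 12149 genes, and 8 were lower, against 53.1%, with 0 and 3 after centring. Among the lower genes, RN7SKP206, with 0 counts in both drugs, and ASAP1-IT2, with 0 in ActD, passed the limit on low values only through the DMSO library. Nothing is read from the numbers of lower genes either.

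The 5 genes counted as higher in DRB are listed with their counts only. Since they passed through the DRB library alone, nothing is read from their class or position. LINC02912 had 247 counts in DRB against 2 in DMSO and 1 in ActD, a log2 ratio of 4.00, and lies within PVT1, with which its reads cannot be told apart where strand was not counted. LINC00977 had 94 counts against 1 and 0, a log2 ratio of 2.82. PCAT1 had 58 counts in DRB against 0 in both, at least 19.5-fold higher, and LINC00976 had 53 against 0 in both, at least 17.8-fold higher, both set against a floor of 3 counts in the DMSO library. CASC11, in the block of MYC, had 37 counts against 2 and 0, with 1.65. All 5 stood at 0 to 2 counts in DMSO cells.

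Of the genes past the blocks, ASAP1 had 591 counts in DMSO, 850 in DRB and 228 in ActD, with log2 ratios of 0.52 and -1.14, which became 1.84 and 0.04 when centred on the median gene. CYRIB had 394, 360 and 20 counts, with -0.12 in DRB (1.20 when centred) and -3.45 in ActD. CCDC26, over the sixth block, had 165, 29 and 116 counts, with -2.04 in DRB and -0.29 in ActD, or -0.72 and 0.89 when centred, so the DRB call was lost. PRNCR1, in the third block, had 165.8, 171.1 and 3 counts, with 0.05 (1.37 when centred) and -3.33. RN7SKP206, a 7SK pseudogene in a gap, had 33 counts in DMSO and 0 in DRB and in ActD, at least 10.9-fold and at least 9.61-fold lower. Reads of such a copy can be shared with its parent gene. LRATD2 had 76, 56 and 21 counts. LINC00861, KNOP1P5 and GSDMC had 0 counts in all 3 libraries, although the DNA of the first stood at 5.45 times the median gene.

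Untreated cells had both kinds of RNA library. Of 11 window genes measured there, 3 were higher in nascent RNA, against 9.50% of 13988 genes, and 1 was lower, against 17.8%. Of those that were higher, CCDC26 and RNVU1-32 passed the limit on low values only through the nascent library, so nothing is read from their number. CCDC26 had 89 nascent counts and 2 in total RNA, a log2 ratio of 1.97, and LRATD2 had 167 and 242, at -1.40. The other 2 genes that were higher, RNVU1-32 and RNU6-1255P, are small nuclear RNA copies whose reads can be shared with other copies. LINC00861 had 101 and 73 counts, or 4.01 and 5.76 CPM. ASAP1 and CYRIB, outside the blocks, had 21.9 and 29.8 CPM in nascent RNA.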

How the data were processed

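Of 27 HL-60 libraries, 13 peak lists (10 ChIP, 3 RIP), 3 input DNA tables and 5 RNA tables were used, and the 6 IgG libraries were not analysed here. Reads were trimmed with Trim Galore and cutadapt, checked with FastQC, aligned with STAR 2.5.2b to GRCh38, and peaks called with HOMER, tools named without roles in the submitters' processing notes. The authors' peak lists give for each peak, per the file headers, a score, a signal (the tag count, also normalized to a scale the headers do not state), the control's tag count, the p-value and the fold of the 2 tag counts. The control library, the gene counting tool, its annotation and its use of strand are not given in the sources used here. Gene tables hold expected counts as deposited, not whole, with gene names and lengths as other columns, and in the 3 treated nascent tables the values are packed in 1 field.

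Peaks were assigned by start. Densities were compared with exact conditional binomial intervals, shares with exact Clopper-Pearson intervals and odds with conditional exact intervals (95.0% level, counting error only). Input counts were divided by the tables' effective gene lengths, and genes under 20 summed counts were given no rank. RNA was compared as log2(CPM + 1) where a gene had 20 summed counts and averaged 1 CPM or more, with a floor of 3 counts. Gene positions came from RefSeq, GRCh38.p14, in which 40887 of 58233 IDs were located, and a gene end is either end of the gene. Named peaks are the 3 highest-scoring per list in the window, and named genes are the protein-coding genes starting in the window, others there with at least 20 counts in any table, and the 5 nearest measured protein-coding genes on each side. A copy number check on genes elsewhere is not reported here. The genes of low count named in the blocks, ASPH and the highest-ranked genes were named after their values were seen. The members and lists were chosen with earlier results of these data known. The block rule, the covered bases and the gap comparison were added after seeing the data. For H2A.Z in DRB cells, block values are a description. Computations used Python 3.11.15, numpy 2.4.6, pandas 2.3.3 and scipy 1.17.1 and were tested on simulated data. Other reference regions, fold limits, bin rules, merged peaks, gene filters and RNA scalings were tried.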

Additional observations from a re-analysis of the deposited data

Results flagged for a closer look

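The window's share of chromosome 8 peaks differed between siMyc and siNTC cells in opposite directions for the 2 antibodies. The odds of a peak lying in the window were 0.566 times those of siNTC for H2A.Z and 1.71 times for acH2A.Z. With 1 library per group, the difference between the 2 antibodies was not tested. Among peaks of a fold over control of at least 8 the odds were 0.616 and 1.21 times.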

How the results depend on the processing

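No paired analysis was possible because each group is 1 library and the labels give no shared replicate numbers. For the same reason no library could be left out. Where a value moved, the cause was not tested. Against all other autosomes the window ratio was 44.7, 55.0, 3.75, 4.63 and 2.89 for H2A.Z in DMSO, DRB, ActD, siNTC and siMyc, and 2.77 and 1.51 for acH2A.Z in DRB and ActD. With a fold over control of at least 8 it was 4.62, 1.14 and 0.702 for H2A.Z in ActD, siNTC and siMyc. For acH2A.Z it was then 0.993 in DMSO, 3.14 in DRB, 0.807 in ActD, 0.714 in siNTC and 0.864 in siMyc, and for RIP 0.947 (H2A.Z), 1.41 (acH2A.Z) and 1.43 (Tip60). The block ratio at that fold turned below 1 for H2A.Z in siNTC (0.334) and siMyc (0), acH2A.Z in ActD (0.736) and siMyc (0.321) and H2A.Z RIP (0.357), and stood below 1 also for acH2A.Z in siNTC (0.416) and Tip60 RIP (0.983). By summed tags the window ratio was 91.3, 46.2, 6.36 and 4.37 for H2A.Z in DRB, ActD, siNTC and siMyc, 0.841, 5.74, 1.08 and 6.39 for acH2A.Z in DMSO, DRB, ActD and siMyc, and 3.07, 3.90 and 5.10 for the H2A.Z, acH2A.Z and Tip60 RIP lists. Merging peaks within 1 kb gave 1.5 and 1.41 for acH2A.Z and Tip60 RIP.

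With at least 3 peaks required, a limit chosen after seeing the data, the window bins fell to 14, 8 and 7 for H2A.Z in ActD, siNTC and siMyc, and to 4, 10, 4 and 6 for acH2A.Z in DMSO, ActD, siNTC and siMyc. The odds of ActD against DMSO were 0.0741 (H2A.Z) and 0.812 (acH2A.Z) at a fold of at least 8. For input DNA in DMSO, DRB, ActD and summed, genes with at least 20 counts gave 3.47, 3.04, 2.91 and 3.13, the median gene 1.93, 1.16, 1.20 and 1.39, and genes overlapping a block, chosen after seeing the data, 6.62, 6.21, 5.80 and 6.20. Centred on the median gene, 8 window genes were higher and 1 lower in DRB, and 3 lower in ActD. With no filter, 1 was higher in ActD. Under other bins or folds 50 edges moved little and 12 more, among them the ActD acH2A.Z stretch, which ran from 17100001 to 125800000 at a fold of at least 8. Sparse lists, with 130 H2A.Z peaks on chromosome 8 in DMSO, and shallow input DNA limit the precision of single bins and genes.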
